A study of Mus musculus with 4 samples.

Results

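The Reg (regenerating islet-derived) genes measured here are Reg1, Reg2, Reg3a, Reg3b, Reg3d and Reg3g, chosen by the gene name of their probes in the authors' deposited table. They are 6 of the 26265 genes named on the array, and each has 1 probe among 39429 non-control probes. The samples were islets of Langerhans, the endocrine tissue of the pancreas, taken from 8-week-old mice of strain C57BL/6 and cultured at 5.6 mM glucose for 24 h. A first group of 2 samples received 30 µM GKA, a small-molecule activator of glucokinase, and a second group of 2 received the vehicle, DMSO. Each sample was hybridised to 1 single-colour Agilent array. No genetic change is given for any group, and whether the samples within a group are separate mice or cultures is not stated in the labels. The p-values therefore cover the spread among these 4 samples alone, and that spread may be technical.

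Reg proteins are small secreted proteins with a C-type lectin fold. The founding member was isolated from regenerating rat islets, and in the adult pancreas the family is made mostly by the exocrine acinar cells, which secrete the digestive enzymes, with induction in islets during inflammation and injury. Cytokines that signal through gp130 or the IL-22 receptor, and then through the transcription factor STAT3, are known inducers, and the heparan sulfate enzyme EXTL3 has been proposed as a receptor for Reg proteins.

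The 6 probes lie together on chromosome 6 (build mm9, 78323323 to 78416479, a span of 93157 bases). Each probe is 60 bases long. The order of the genes in the RefSeq table is Reg3b, Reg3d, Reg3a, Reg2, Reg1 and Reg3g, and the only other gene listed among them is the pseudogene Gm52853, between Reg1 and Reg3g. In mm9 coordinates the probe of Reg1 (RefSeq NM_009042) covers 78378527 to 78378586, that of Reg2 (NM_009043) 78357959 to 78358018, and that of Reg3a (NM_011259) 78333635 to 78333694. The probe of Reg3b (NM_011036) covers 78323323 to 78323382, that of Reg3d (NM_013893) 78325868 to 78325927, and that of Reg3g (NM_011260) 78416420 to 78416479. The exon or UTR each probe falls in was not determined, since no annotation of mm9 was used here, and cross-hybridisation between these paralogs was not tested.

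The upstream sequences of 4 members are given because they show which short motifs the family shares before its start sites. Reg1 and Reg3d are the members with a value well above background, Reg2 is the neighbour of Reg1, and Reg3b is shown for its STAT-type match. Each run holds the 250 bases before the annotated start (RefSeq, build GRCm38.p6), which are chr6:78425733-78425982 on the plus strand for Reg1, chr6:78404905-78405154 on the plus strand for Reg2, chr6:78370635-78370884 on the plus strand for Reg3b and chr6:78378866-78379115 on the minus strand for Reg3d. Capitals mark matches, on either strand, to TATAAA, to the STAT-type palindrome TTCNNNGAA, and to an E-box (CANCTG) followed after 6 bases by a TC-type box (TTCCCA).

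Reg1: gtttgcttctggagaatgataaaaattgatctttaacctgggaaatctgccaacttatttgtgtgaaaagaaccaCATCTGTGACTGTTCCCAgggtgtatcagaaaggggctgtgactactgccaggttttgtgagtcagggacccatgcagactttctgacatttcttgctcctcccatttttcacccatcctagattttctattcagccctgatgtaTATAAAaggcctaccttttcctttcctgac

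Reg2: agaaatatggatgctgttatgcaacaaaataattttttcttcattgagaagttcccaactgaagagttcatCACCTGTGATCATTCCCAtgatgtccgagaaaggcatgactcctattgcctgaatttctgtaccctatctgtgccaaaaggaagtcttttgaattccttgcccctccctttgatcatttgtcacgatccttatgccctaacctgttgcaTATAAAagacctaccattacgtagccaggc

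Reg3b: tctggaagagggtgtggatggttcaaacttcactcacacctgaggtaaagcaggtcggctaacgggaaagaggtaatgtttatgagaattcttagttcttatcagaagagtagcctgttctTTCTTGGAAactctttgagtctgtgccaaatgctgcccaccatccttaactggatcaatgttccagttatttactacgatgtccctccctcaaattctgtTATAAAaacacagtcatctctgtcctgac

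Reg3d: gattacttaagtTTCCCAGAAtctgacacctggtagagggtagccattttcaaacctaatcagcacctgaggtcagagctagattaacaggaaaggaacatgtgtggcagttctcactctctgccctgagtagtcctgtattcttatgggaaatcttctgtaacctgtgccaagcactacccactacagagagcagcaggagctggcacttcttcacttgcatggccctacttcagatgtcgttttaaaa

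The pairing of an E-box with a TC-type box is the kind of site bound by PTF1, the transcription factor complex of acinar cells. This spaced form was chosen after these sequences were read. It stood 175 bases before the start of Reg1 and 179 bases before that of Reg2, and 0.0274% of all 32851 RefSeq upstream sequences of the same 250 bases hold it. TATAAA was found in 4 of the 6 members, Reg1, Reg2, Reg3b and Reg3g, against 12.4% of all sequences, and its nearest match began between 27 and 30 bases before the start. The STAT-type palindrome was found in Reg3b and Reg3d, at 129 and 238 bases before the start, and in 7.02% of all sequences. In Reg3d it overlaps a match to TTCCCA. The simple E-box CACCTG was found in 4 members (Reg2, Reg3a, Reg3b and Reg3d) and 17.2% of all sequences, and TTCCCA in 5 members (all but Reg3b) and 21.6%, counting the matches that lie within the spaced form in Reg1 and Reg2. A match is a description of letters and not evidence of binding.

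**Figure D1:**
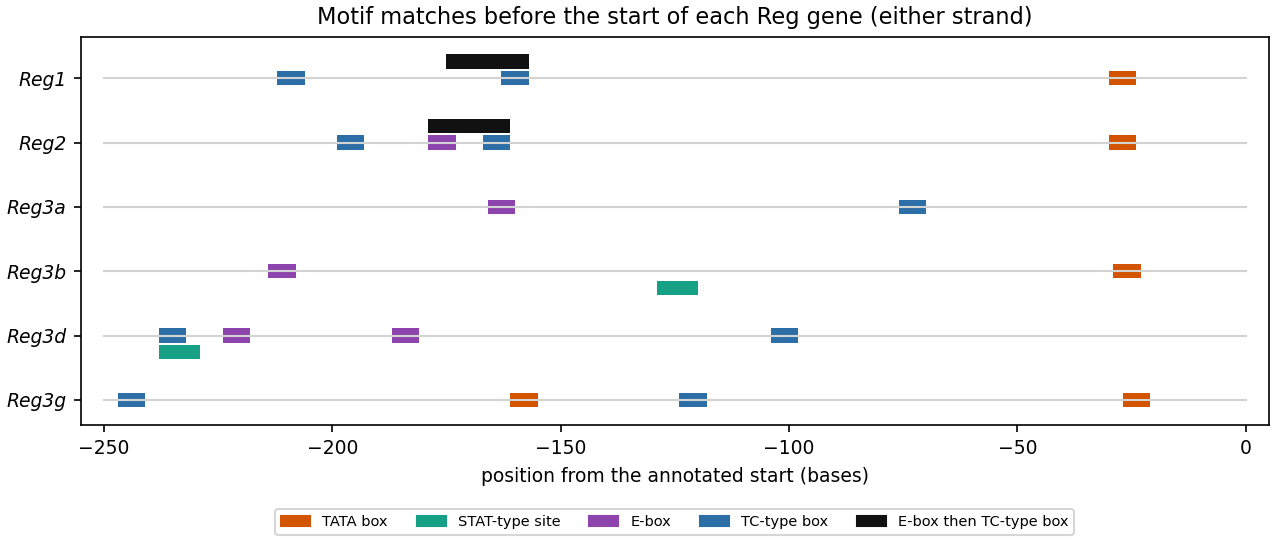
Positions of motif matches, on either strand, in the 250 bases before the annotated start of each Reg gene; the x axis is the distance from the start in bases, each row is 1 gene and each coloured bar is 1 match. The spaced E-box and TC-type box appears in Reg1 and Reg2, 175 and 179 bases before the start, and the TATAAA match nearest the start begins 27 to 30 bases before it in 4 genes.

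The Reg family gave little signal in these islets. Of the 6 probes, 4 (Reg2, Reg3a, Reg3b and Reg3g) were not well above background on any of the 4 arrays, and no probe was so on all 4. Over the whole array, 30.6% of genes were not well above background on any array. On the GKA arrays 1 and 0 members were well above background, against 2 on each vehicle array. The flag for well above background is set by Agilent Feature Extraction, and intensities are its processed signals in arbitrary units.

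Many of the low values are not measurements of a level. Feature Extraction also marks each spot as positive and significant or not, and 11 of the 24 Reg values (6 probes on 4 arrays) were not. Over all non-control spots, 38216 of 172080 values were not. All 11 Reg values had a processed intensity equal to their own error within 1%. So did 38215 of those 38216 values, against 0.101% of the values marked positive and significant. Values at their error and not so marked are stand-ins for a signal near 0 and have no order among themselves. In the Reg family they comprised Reg1 on GKA replicate 2, Reg3b on vehicle replicate 1, and Reg2, Reg3a and Reg3g on both GKA arrays and vehicle replicate 2.

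The vehicle arrays differed in inflammatory genes. Of 23 STAT3 and acute-phase target genes, 11 lay over 2-fold lower on vehicle replicate 1 than on vehicle replicate 2 after scaling and 0 over 2-fold higher, where 0.995% and 0.495% of all 17178 genes tested did so. Between the GKA arrays, 1 of the 23 genes lay over 2-fold lower on replicate 1 and 1 over 2-fold higher. Of all genes tested, 0.378% and 0.675% did so. Which vehicle array is typical of the group cannot be told from 2 arrays, so results for Reg3b and the acute-phase genes are given with and without each of them.

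Reg1, the founding member and in the pancreas mainly a secretory product of acinar cells, gave lower values with GKA. The difference did not pass, and its size was not resolved. Its processed intensity was 16.2 and 3.91 on the GKA arrays, against 59.7 and 26.8 on the vehicle arrays. It was well above background on GKA replicate 1 and on both vehicle arrays, and the value of GKA replicate 2 is a stand-in. Both GKA arrays lay below both vehicle arrays, also after scaling, where the log2 signal relative to the 75th percentile of each array was -5.10 and -7.26 with GKA, against -3.65 and -4.82 with vehicle. The fitted log2 difference was -1.94 ± 0.76 (SE, 2 arrays a group), with an unadjusted 95% interval from -3.86 to -0.03. This difference takes the stand-in at face value and is therefore no measured fold. It did not pass in limma after Benjamini-Hochberg adjustment over 17178 genes (adjusted p = 0.134, unadjusted p = 0.0475). The arrays of each group differed widely, and the value was -3.02 without GKA replicate 1 and -0.87 without GKA replicate 2. With normexp background correction, in settings chosen after the data were seen, it was -0.21 with the 75th percentile and -0.48 with quantile normalization.

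Reg3d, the mouse relative of the hamster islet neogenesis-associated protein INGAP, stood near the limit of detection. Its processed intensity was 10.2 and 6.77 on the GKA arrays, where it was not well above background, against 14.4 and 13.3 on the vehicle arrays, where it was. The lowest probe called well above background had 9.94 and 13.6 on the GKA arrays and 12.5 and 12.1 on the vehicle arrays, so no fold could be bounded. The GKA values were lower before scaling, but relative to the 75th percentile the groups overlapped, with log2 signals of -5.77 and -6.47 with GKA and -5.70 and -5.82 with vehicle. The fitted log2 fold change was -0.35 ± 0.24 (adjusted p = 0.349 in limma), with a 95% interval from -0.97 to 0.26. It was 0.29 with normexp and the 75th percentile and lay close to 0, at -0.0038, without GKA replicate 2.

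Thus 0 of the 2 members tested passed at an adjusted p under 0.05 in limma, where 17.1% of all genes tested passed, 9.11% being higher and 8.01% lower with GKA. At an unadjusted p under 0.05, 1 of the 2, Reg1, was past the threshold. The share of all genes tested past it was not counted, and it exceeds the 17.1% that passed after adjustment. Arrays of the 2 groups did not overlap for Reg1, as for 65.9% of all genes tested (33.5% with GKA lower). Both tested members were well above background on both vehicle arrays and on at most 1 GKA array, a pattern shown by 3.88% of the 16890 genes that were well above background on both vehicle arrays, and Reg3d was so on neither GKA array, as were 1.05%. Both entered the test through their vehicle values, so their lower GKA values are a description only.

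Reg3b, also known as pancreatitis-associated protein and a bactericidal lectin of the gut, had a processed intensity of 9.05 and 15.2 on the GKA arrays, against 3.06 and 10.1 on the vehicle arrays. No array had it well above background, and the unscaled groups overlapped, since vehicle replicate 2 exceeded GKA replicate 1. Relative to the 75th percentile the log2 signals were -5.94 and -5.30 with GKA, against -7.94 and -6.22 with vehicle, with no overlap. The groups likewise did not overlap for 65.9% of all genes tested, among which Reg3b was not. The lower vehicle value of Reg3b is a stand-in. With every probe in the fit, whatever its brightness, the log2 difference was 1.46 ± 0.64 (adjusted p = 0.271 in limma, over 26263 genes). The difference was 0.60 without vehicle replicate 1 and 2.32 without vehicle replicate 2, given with no test. The part of the gap between the vehicle arrays in acute-phase genes in the Reg3b values was not tested.

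Reg2, which is found in mouse beta cells and acinar cells, had 2.95 and 4.18 on the GKA arrays, against 6.17 and 3.62 on the vehicle arrays. Reg3a, a secreted lectin of the pancreas and gut, had 2.94 and 4.09 with GKA, against 4.24 and 3.49 with vehicle. Reg3g, a lectin that kills Gram-positive bacteria at the gut surface, had 2.39 and 3.41 with GKA, against 3.89 and 2.91 with vehicle. For all 3, the values on both GKA arrays and vehicle replicate 2 are stand-ins, so their order and the differences fitted to them are no measurement. Taken at face value, the groups overlapped before and after scaling. With every probe in the fit the log2 difference was -0.04 ± 0.32 for Reg2, 0.24 ± 0.21 for Reg3a and 0.15 ± 0.24 for Reg3g, with adjusted p from 0.479 to 0.940 in limma. These values do not show that the genes were silent or unchanged, only that no signal or difference was detectable.

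**Figure D2:**
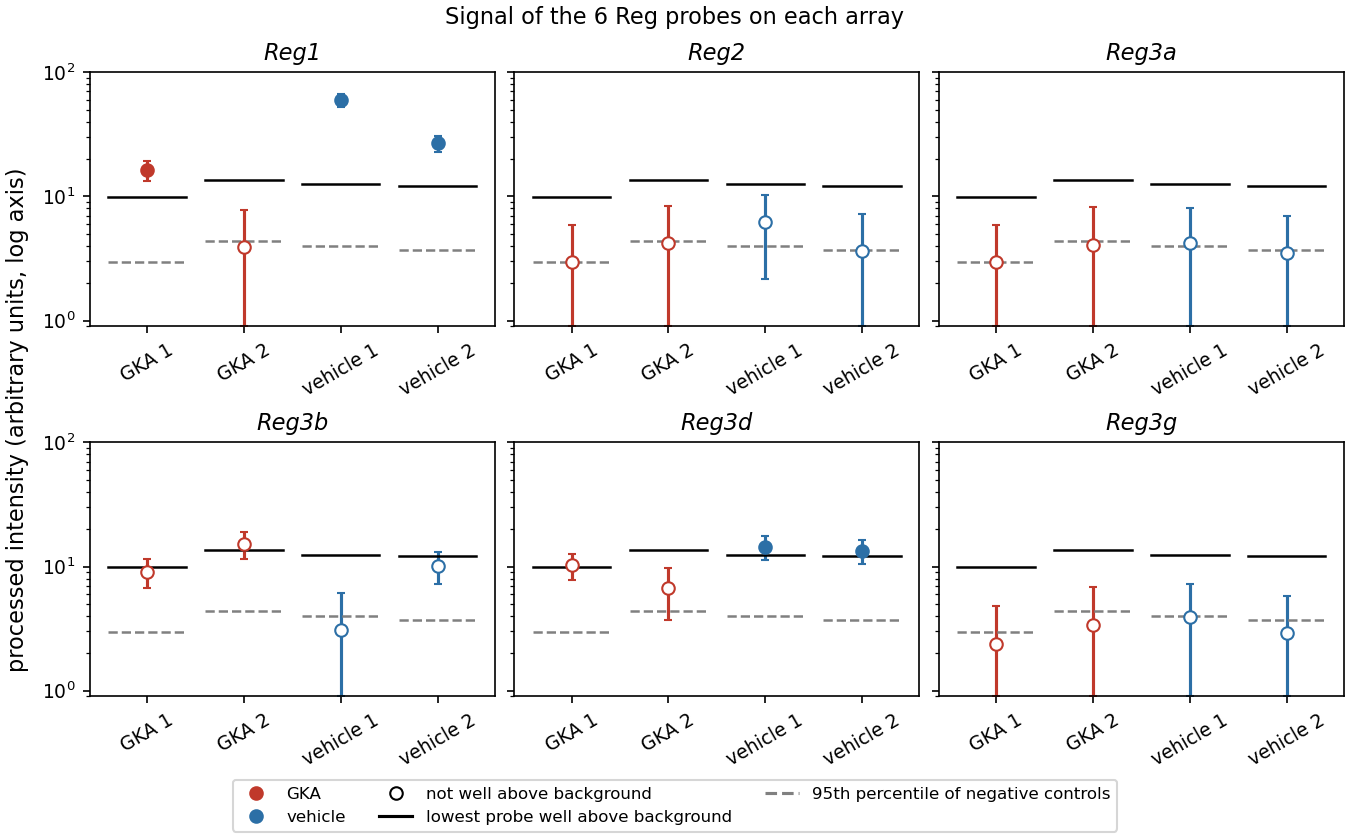
Processed intensity (y axis, arbitrary units, log axis) of each Reg probe on the 4 arrays; bars are the error that Feature Extraction gives the spot and are cut where they reach below the axis, solid lines the lowest probe well above background on that array, dashed lines the 95th percentile of 153 negative control spots. Filled points, well above background, occur for Reg1 on GKA replicate 1 and both vehicle arrays and for Reg3d on both vehicle arrays.

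The 95th percentile of the negative controls was 2.97 and 4.35 on the GKA arrays and 3.96 and 3.70 on the vehicle arrays. On these arrays 3 and 2 members exceeded it with GKA, against 4 and 3 with vehicle. The share of all probes above it was not counted, so these counts are a description only. Without scaling, the authors' deposited table, which holds 1 ratio of GKA over control per probe, gives 0.232 for Reg1, 0.612 for Reg3d and 1.84 for Reg3b, and 0.728, 0.910 and 0.854 for Reg2, Reg3a and Reg3g. For 5 of these 6 ratios at least 1 of the 4 values behind them was such a stand-in, the exception being Reg3d.

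**Figure D3:**
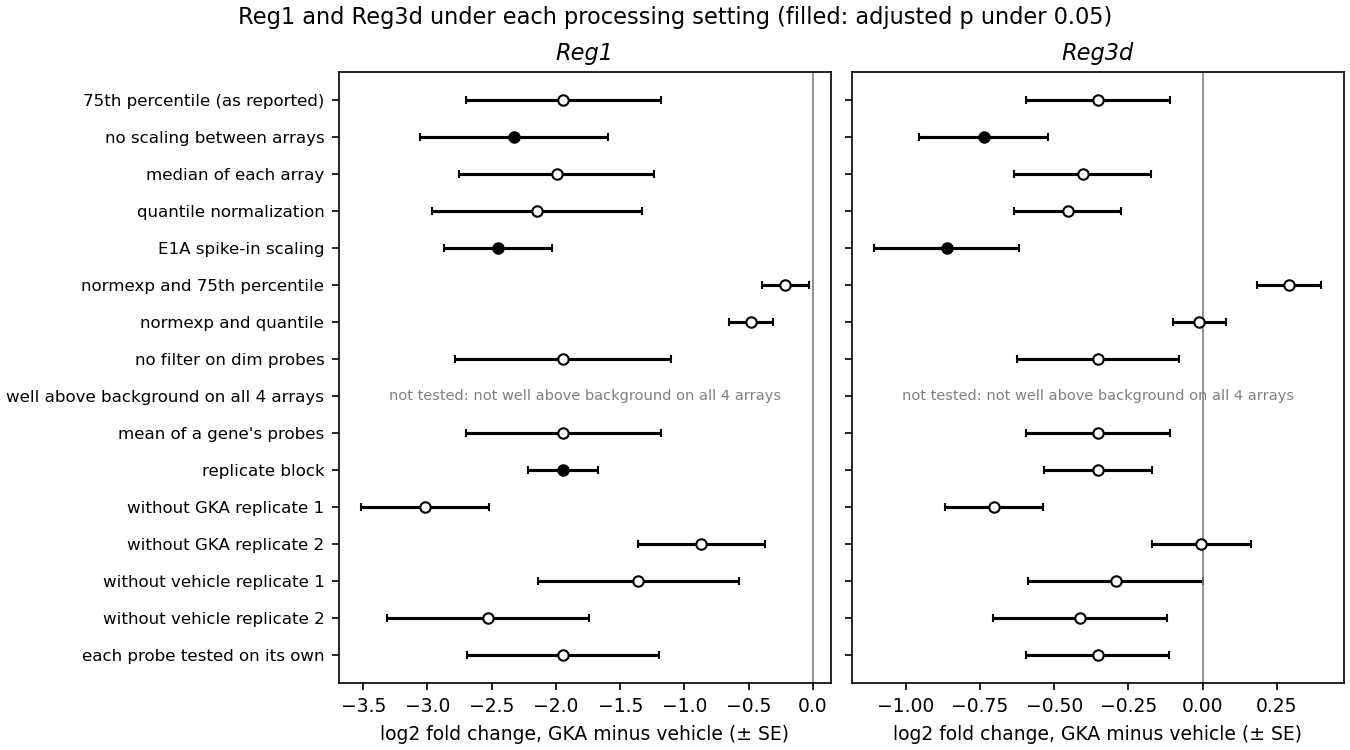
Log2 fold change of Reg1 and Reg3d, GKA minus vehicle (x axis, bars are the SE), under each processing setting (rows); filled points had an adjusted p under 0.05. The Reg1 values include its stand-in, except without GKA replicate 2 and with normexp, and Reg1 lies below 0 in all 14 alternatives that gave a value, from -3.02 to -0.21, and Reg3d in 13 of 14, from -0.86 to 0.29.

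Reg1 is an acinar product, so the acinar genes are given beside it. The islet hormone genes Ins1, Ins2, Gcg and Iapp were well above background on all 4 arrays and did not pass, with log2 fold changes of 0.25 to 0.31 in limma (adjusted p = 0.129 to 0.171). All 4 turned below 0 unscaled and when scaled to spike-ins. Of the other hormone genes, named after their values were seen, Sst rose by 0.83 ± 0.13 (adjusted p = 0.0198 in limma), while Ppy, Pyy and Ghrl did not pass. Of 28 acinar genes on the array, 9 were not well above background on any array, among them those of the carboxypeptidases Cpa1 and Cpb1, the elastases Cela2a and Cela3b and the lipase Pnlip. Of the 15 tested, 1 rose, 3 fell and 11 did not pass, with a median log2 fold change of -0.10, against -0.01 over all genes tested. By sign alone, 8 lay below 0 and 7 above. The secretory genes Sycn (0.42), Cel (0.25), Ctrl (0.14), Ctrc (0.13) and Clps (0.04) lay above 0. Cela1 (-0.40), Amy2a5 (-0.36), Amy1 (-0.12) and Ctrb1 (-0.10) lay below, and none of these genes passed. At an unadjusted p under 0.05 in limma, 2 of the 15 were higher and 4 lower. The shares of all genes tested at that threshold were not counted, and they exceed the 9.11% higher and 8.01% lower after adjustment. The list's median was 0.03 without GKA replicate 2 and 0.05 without vehicle replicate 1. Try5 and Try4, which encode trypsins, had 4.61 and 7.78 (Try5) and 6.46 and 3.13 (Try4) on the GKA arrays, against 115 and 91.2 (Try5) and 57.5 and 44.7 (Try4) on the vehicle arrays. Neither was well above background on either GKA array, and they were at least 6.76-fold (adjusted p = 0.0036) and at least 3.35-fold lower (adjusted p = 0.0122, both in limma). Both entered the test through their vehicle values alone, and their adjusted p rests on GKA values below detection, of which that of Try4 on replicate 2 lay at its error. For these bounds the vehicle mean of log2 signals was set against a GKA mean in which a probe below the array's detection limit, the dimmest probe well above background, was raised to that limit.

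Pnliprp1, a lipase-related protein of acinar cells named after its values were seen, had 21.8 and 2.85 with GKA against 40.9 and 51.0 with vehicle and did not pass (adjusted p = 0.168 in limma). Its value on GKA replicate 2 is also a stand-in. Rnase1, the pancreatic ribonuclease, fell by 0.69 ± 0.15 (adjusted p = 0.0372 in limma) on the log2 scale. Bhlha15, a transcription factor of secretory cells, rose by 1.37 ± 0.12 (adjusted p = 0.0059 in limma). Of 15 alternative settings, Rnase1 passed in 9 and Bhlha15 in 14. The summed scaled intensity of the 15 genes was 5913 and 6272 on the GKA arrays and 3114 and 2834 on the vehicle arrays, and without Bhlha15, a trim made after the values were seen, it was 690 and 624 on the GKA arrays and 904 and 847 on the vehicle arrays. The acinar genes did not move one way, and their part in the Reg1 values was not tested. For any gene of a cell type in whole islets, a different number of cells and a different amount of RNA per cell cannot be told apart.

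**Figure D4:**
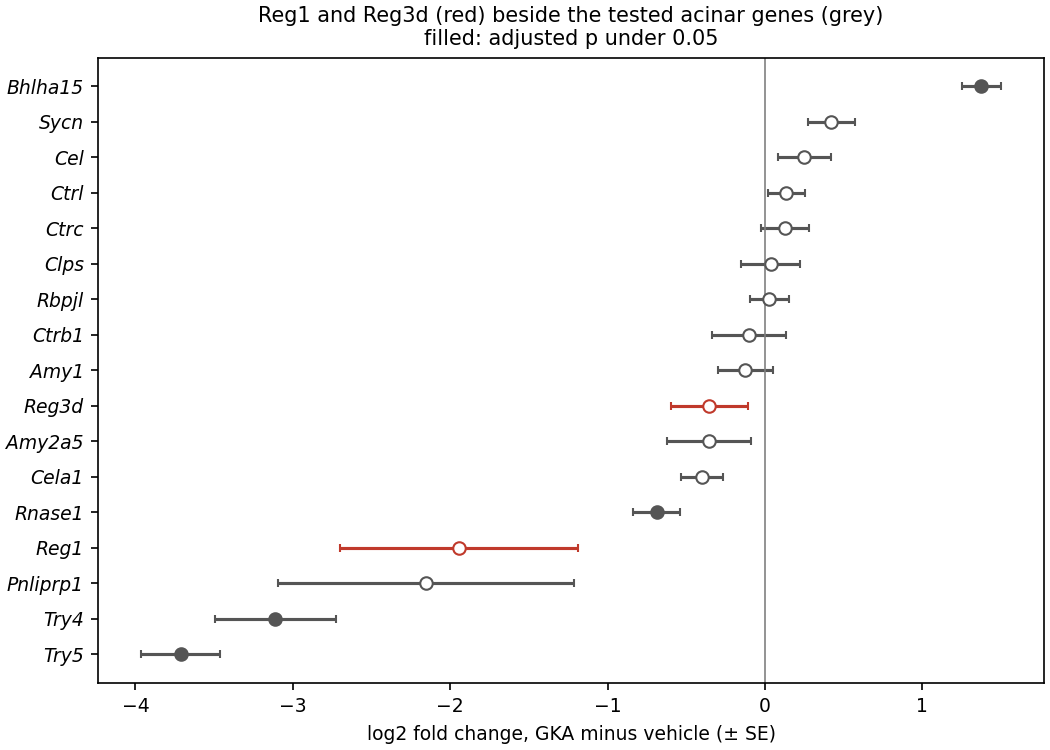
Log2 fold change, GKA minus vehicle (x axis, bars are the SE), of Reg1 and Reg3d (red) and of the 15 tested acinar genes (grey), sorted by value; filled points had an adjusted p under 0.05. The acinar genes lie on both sides of 0, from 1.37 for Bhlha15 to -3.71 for Try5, and the values of Reg1, Pnliprp1 and Try4 include a stand-in on GKA replicate 2.

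The genes of the inducing pathway did not pass. Of 23 genes of gp130 and IL-22 signalling, 20 were tested and 0 passed in either direction in limma, with a median of 0.02. At an unadjusted p under 0.05, 1 was higher (Cntf, a ligand, 0.44) and 2 were lower (Cntfr, its receptor, -1.25, and the kinase Jak1, -0.36). The share of all genes tested past that threshold was not counted. It exceeds the 17.1% that passed after adjustment, so these counts have no matching background here. Each gene was counted by its brightest probe. Lifr, a receptor gene, stood at 0.24 by that probe, while further Lifr probes, not tested, lay at 1.48 and 0.69. Further untested probes lay on the same side of 0 as the tested one for Cntf (0.26), Stat3 (0.25), Cntfr (-0.86) and Pias3 (-0.45). The signal transducer Il6st, which encodes gp130, stood at 0.35 ± 0.14 (adjusted p = 0.145), Stat3 at 0.26 ± 0.12 (adjusted p = 0.188), its feedback inhibitor Socs3 at -0.04 ± 0.28 (adjusted p = 0.929), and Il6 at -0.02 ± 0.69 (adjusted p = 0.987). Il6st and Stat3 turned below 0 unscaled and when scaled to spike-ins. Ptpn11, a phosphatase recruited to gp130, stood at 0.12 and likewise lay below 0 in both. The ligand genes Lif, Osm and Il22 were each well above background on 1 array and were not tested (named after their values were seen). The receptor gene Il22ra1, well above background on 1 GKA array and both vehicle arrays, stood at -0.27 ± 0.41 (adjusted p = 0.667).

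Of 23 STAT3 and acute-phase target genes, all tested, 2 rose, 1 fell and 20 did not pass, with a median of 0.12. These counts depended on the vehicle arrays, with 10 higher and 0 lower (median 0.78) without vehicle replicate 2, and 2 higher and 2 lower (median -0.22) without vehicle replicate 1. Lrg1, a secreted glycoprotein of the acute phase, had 3206 and 4118 on the GKA arrays against 271 and 557 on the vehicle arrays, and rose by 3.61 ± 0.34 on the log2 scale (adjusted p = 0.0067 in limma). Fga, a fibrinogen chain, rose by 1.18 ± 0.20 (adjusted p = 0.0233), well above background on 1 of 2 vehicle arrays. A further Fga probe, not tested, had 11.6 and 6.79 with GKA against 23.7 and 16.3 with vehicle, so the probes pointed in opposite directions. Pim1, a kinase, fell by 0.89 ± 0.22 (adjusted p = 0.0491), passing in 9 of 15 alternative settings. Of the Reg relatives, Extl3, whose product is the proposed receptor, had 2063 and 2379 with GKA against 2832 and 2786 with vehicle, a scaled log2 fold change of 0.04 ± 0.11 (adjusted p = 0.821) that turned below 0 unscaled and under median or spike-in scaling. Reg4, the family member on chromosome 3, was not well above background on any of the 4 arrays, with 8.11 and 3.58 with GKA against 3.91 and 3.14 with vehicle. Its values on GKA replicate 2 and vehicle replicate 2 are stand-ins.

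Other cell types that an islet preparation can hold were also followed. Of 15 leukocyte markers tested, 6 fell, 1 rose and 8 did not pass, with a median of -0.51, led by the lysozyme genes Lyz2 (-2.14) and Lyz1 (-1.63) and the macrophage gene Aif1 (-1.56), while Cd14 (1.32) rose. Duct markers had 1 higher (Spp1, 2.26) and 2 lower (Cldn4, -0.81; Krt7, -0.79) of 10, endothelial markers 2 higher (Cdh5, 0.63; Ramp2, 0.54) and 1 lower (Emcn, -0.76) of 10, and fibroblast and stellate markers 1 higher (Fn1, 0.81) and 1 lower (Col1a2, -0.87) of 9. Of 15 alternative settings, Cdh5 passed in 6, Ramp2 in 7 and Fn1 in 8, while Spp1 passed in 14, Krt7, Cldn4 and Emcn in 11 each and Col1a2 in 12. The endothelial gene Kdr stood at 0.34 by its tested probe and did not pass. A further Kdr probe, not tested, had 717 and 813 with GKA against 1750 and 1554 with vehicle, a scaled log2 difference of -0.73. The Kdr probes thus pointed in opposite directions. Islet endocrine markers had 4 higher, which were Pdx1 (1.11), Mafa (1.06), Chgb (1.00) and Sst (0.83), and 0 lower of 15 (7 higher and 0 lower at an unadjusted p under 0.05). Of all genes tested, 9.11% were higher and 8.01% lower after adjustment. The larger shares at the unadjusted threshold were not counted. With either 1 of the GKA arrays left out, 0 endocrine, 0 endothelial and 0 fibroblast markers passed in limma, and 2 leukocyte markers did, both lower. Between 59.7% and 63.5% of non-control probes were well above background on each array, and the 75th percentile of intensity was 557 and 598 on the GKA arrays and 751 and 755 on the vehicle arrays. All 4 arrays lay on 1 slide, on which position and group cannot be told apart.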

How the data were processed

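Cy3-labelled RNA of 2 GKA and 2 vehicle samples was measured on single-colour Agilent arrays. Each processed intensity was made with Agilent Feature Extraction, version 10.7.3.1 per the file headers (version 9.1 per the submitters' processing notes), and is deposited unscaled between arrays, with its subtraction settings not given in the sources used here. The authors' deposited table gives probe gene names, mm9 coordinates, 1 intensity per group and their ratio. Flags (other values, 0 or 1) come from the deposited array files.

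Here, outlier-flagged and control spots were left out, spots of a probe averaged, and log2 intensities set relative to the 75th percentile of each array. Probes had to be well above background on each array of a group, GKA or vehicle, to be kept, with the brightest probe per gene. GKA was compared with vehicle by limma 3.58.1 (R 4.3.3, two-sided, Benjamini-Hochberg over all genes, threshold 0.05, 2 residual and 3.33 prior degrees of freedom). Permuting 4 arrays cannot reach that threshold. The number of arrays limits the precision. In 10 simulations over 17178 genes, the fit recovered 39% of genes changed 2-fold and 94% of those changed 4-fold, and 5.43% of its calls were false. Each simulation changed 200 genes and drew noise independently for each gene. In the data 17.1% of genes passed and arrays of a group differed in related genes, so these rates may not hold there. Members, lists and motifs were chosen with earlier results of these data known. An item of the acinar list is not reported here and was left out of that list's counts and sums. Genes named were all members, a short fixed set, and of each list up to 3 that passed per direction (or the 2 brightest), and a search for genes with the most similar pattern needed a member well above background on all 4 arrays, of which there were 0. Alternatives covered scaling, background correction, the filter, probe summaries, the replicate block and leaving out arrays. Planned normexp settings on mean signals were replaced, after seeing the data, by median signals.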

Additional observations from a re-analysis of the deposited data

How the results depend on the processing

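Reg1 lay below 0 in all 14 alternatives that gave a value (adjusted p = 0.00016 to 0.384 in limma) and passed in 3: without scaling (-2.33, adjusted p = 0.0474), with spike-in scaling (-2.45, adjusted p = 0.00016) and with the replicate block (-1.94, adjusted p = 0.0367). Reg3d (adjusted p = 0.0077 to 0.991) passed without scaling (-0.74, adjusted p = 0.0393) and with spike-in scaling (-0.86, adjusted p = 0.0077), and turned to 0.29 with normexp and the 75th percentile. Both scalings also shifted the median of all genes, to -0.40 and -0.52. The normexp offset of 50 exceeds every Reg intensity but 1. Leaving out 1 array gave -3.02 to -0.87 for Reg1 and -0.70 to -0.0038 for Reg3d. The 2 replicate numbers did not pair the samples by the labels, and deviations of same-numbered arrays correlated with r = 0.075 over genes. Neither gene could be tested with the filter on all 4 arrays.

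Of all genes, 1565 were higher and 1376 lower. The counts were 750 and 7654 without scaling, 519 and 8255 with spike-in scaling, 1014 and 902 with the replicate block, and 156 and 67 without the filter on dim probes. They were 2999 and 2054 with normexp and the 75th percentile, 1958 and 2079 with normexp and quantiles, and 315 to 1523 and 206 to 1312 with 1 array left out. Apart from fewer arrays or more probes tested, the cause was not tested. Signal near background limits every Reg value.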
